A study of Mus musculus with 31 samples.

Results

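The cytosolic ribosomal protein genes were taken as all genes whose symbol is Rpl or Rps with a number and an optional letter, plus Rplp0, Rplp2 and Rpsa. Kinases named Rps6k, pseudogenes, Rps27l and other like-named paralogues were left out. Of 18194 genes measured on mouse Affymetrix expression arrays, 42 were members, 22 of the large and 20 of the small ribosomal subunit. RefSeq lists 76 protein-coding genes that the rule would take. Symbols of 69 are on the arrays' probe table, and 27 of these stand only on probe sets that also carry other symbols, among them Rpl5, Rpl23, Rpl24, Rplp1 and Rpl10, which were not analysed here.

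The study set cultured stem-like cells of medulloblastoma, the cerebellar tumour of childhood, against neural stem cells of the young brain. All mice were C57BL/6. The tumour groups were cancer stem cells (CSC) from 2 medulloblastomas of Ptch het p53 het mice, called 27 and B, with 3 technical replicates each, CSC lines from 8 medulloblastomas of Ptch het p53 wt mice, and the 8 tumour tissues matched to those lines. Every tumour group thus carries the Ptch mutation, and no tumour with wild-type Ptch was analysed here. The neural stem cell (NSC) groups, all at postnatal day 7, came from the IV ventricle, the cerebellar white matter and the subventricular zone (SVZ), with 3 biological replicates each. CSC and NSC grew as neurospheres with EGF and FGF2. Each CSC culture represents 1 tumour, and whether the NSC replicates came from separate animals is not given, so p-values measure the spread between these samples.

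Most ribosomal proteins are present once in each ribosome, and their genes are among the most transcribed of a growing cell. Many ribosomal protein mRNAs start with a run of pyrimidines, the 5′ terminal oligopyrimidine (TOP) tract, through which TOR signalling controls their translation. Several ribosomal proteins have a second role when free of the ribosome: Rpl5 and Rpl11, together with the 5S rRNA, bind Mdm2 and so stabilise p53. Loss of 1 copy of RPS19, RPS24, RPS26 or several others causes Diamond-Blackfan anaemia in humans.

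The promoter windows of the members were searched for runs of pyrimidines at the annotated start. Windows are printed for the genes on which the results below turn. RefSeq windows on GRCm38.p6 were at hand for 37 of the 42 members. The printed stretch runs from 30 bases before to 15 bases after the annotated start, 5′ to 3′ on the gene's strand. Capitals mark a run of at least 7 pyrimidines (C or T) that reaches within 5 bases of the start. The first 5 hold such a run and the last 3 do not. They are Rps10 (chr17:27635230-27635274, minus strand) and Rps18 (chr17:33955651-33955695, minus), the most correlated pair of members, Rpl35 (chr2:39005117-39005161, minus), Rps24 (chr14:24490648-24490692, plus; a second window, without a run, starts downstream), Rps27 (chr3:90213634-90213678, minus), Rps7 (chr12:28635939-28635983, minus), Rpl6 (chr5:121204471-121204515, plus) and Rpl37 (chr15:5116583-5116627, plus).
Rps10: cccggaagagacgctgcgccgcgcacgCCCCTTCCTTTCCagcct
Rps18: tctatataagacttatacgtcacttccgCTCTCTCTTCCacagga
Rpl35: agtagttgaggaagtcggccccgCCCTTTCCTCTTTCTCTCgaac
Rps24: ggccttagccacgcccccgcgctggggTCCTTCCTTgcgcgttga
Rps27: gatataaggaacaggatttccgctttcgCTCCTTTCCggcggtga
Rps7: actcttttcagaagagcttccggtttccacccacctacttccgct
Rpl6: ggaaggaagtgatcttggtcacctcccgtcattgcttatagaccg
Rpl37: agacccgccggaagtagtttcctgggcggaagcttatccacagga

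A run that reached within 5 bases of the start was found in 18 of 37 members (48.6%) and in 15.7% of all 27025 genes with a window. Not all of these runs cover the start itself. That of Rpl4 spans bases -18 to -5, and that of Rps26 bases 4 to 12. The letters CCGGAAG, the core of an ETS factor site, stood on either strand of the window of 300 bases in 18 of 37 members (48.6%) and in 9.93% of all genes. AAGATGGC, the core of a YY1 site, stood in 3 members (8.11%, against 3.19% of all genes), and GGGCGG, the core of an Sp1 site, in 21 (56.8%, against 38.2%). These are matches of letters, and an annotated start can lie some bases away from the start used in these cells. The median of the members' mean correlation with the other members, described below, was 0.219 for the 18 genes with a run and 0.235 for the 19 without. Their median log2 difference between p53 het CSC and p53 wt lines was 0.337 with a run and 0.22 without, and that between lines and tissue -0.227 with a run and -0.262 without. These differences between the 18 and the 19 genes were not tested.

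Values are log2 intensities from RMA, which corrects background, equalises the distributions of the arrays and summarises probes into probe sets. Every gene stands for 1 probe set, the one with the highest mean. By a split chosen after the values were seen, the members fell into 33 bright ones, whose probe sets averaged between 10.8 and 12.21, and 9 dim ones, between 1.287 and 8.094. Brightness is a property of the probe set and not of the amount of mRNA, so signals of different genes are not compared as amounts. The strongest signals were those of Rps29 (12.21), Rpl7a (12.11), Rpl37a (12.11) and Rps28 (12.08), and the weakest those of Rps16 (1.287), Rpl39 (3.122), Rps27 (4.395) and Rpl12 (5.621). Even the dimmest of the 33 bright members exceeded 99.54% of all genes. The highest value on any array was 12.92, so the bright members lie near the top of the scale, where differences can be compressed. Of the 33 bright probe sets, 28 have a suffix that marks probes shared between transcripts or genes. RNA of pseudogenes and of near-identical sequences may thus enter their signal. Of the 9 dim probe sets, 1 has such a suffix, that of Rpl37.

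The mean signal of the bright members was close in all groups, on a part of the scale where differences can be compressed, but lines and tissues were apart (plot of mean level by sample). The mean of the 33 bright members was 11.656 ± 0.137 in p53 het CSC (SD, n = 2), 11.481 ± 0.047 in p53 wt CSC lines (n = 8), 11.718 ± 0.033 in tumour tissue (n = 8), 11.599 ± 0.062 in IV ventricle NSC, 11.601 ± 0.019 in cerebellar NSC and 11.558 ± 0.027 in SVZ NSC (n = 3 each). The lines ranged from 11.408 to 11.554 and the tissues from 11.671 to 11.770, without overlap. The p53 het tumours stood apart from each other, at 11.753 in B and 11.559 in 27. Their technical arrays held the order, at 11.744 to 11.767 for B and 11.529 to 11.584 for 27.

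**Figure D1:**
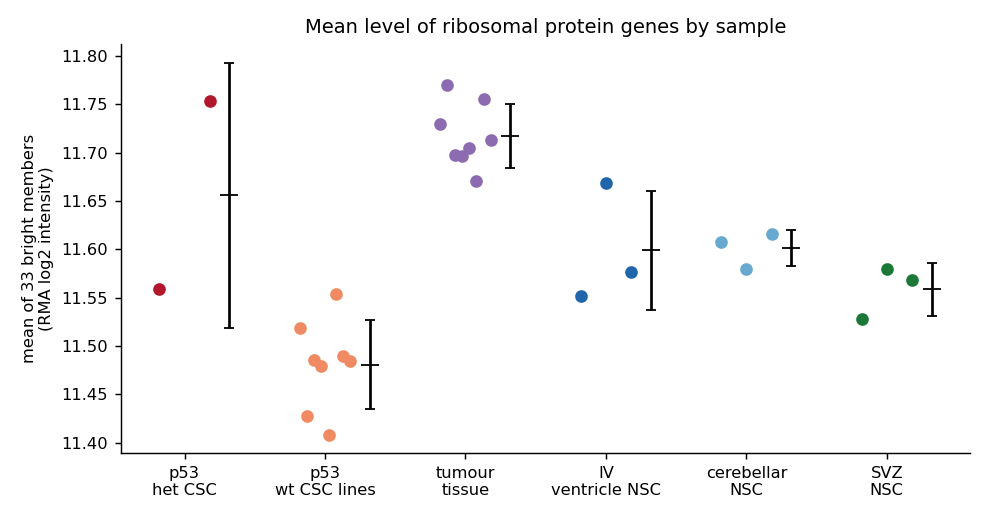
Mean RMA log2 intensity of the 33 bright ribosomal protein genes, 1 point per sample (technical arrays averaged), with the group mean and SD as bars beside the points. The 8 p53 wt CSC lines lie below the 8 tissues without overlap, and the p53 het tumours lie at 11.559 and 11.753.

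Array quality was checked through the difference between the 3′ and 5′ control probe sets of Gapdh, which grows as RNA degrades. It ranged from 0.04 to 0.43 on the 6 p53 het arrays, from -0.03 to 0.22 on the lines, from -0.01 to 0.16 on the tissues, and up to 0.64 on 1 cerebellar NSC array. The digit marks that end the sample names differ between p53 het, p53 wt and NSC samples, so the mark and these groups cannot be told apart.

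Among the NSC, no ribosomal protein gene was called between brain regions. IV ventricle against SVZ NSC, cerebellar against SVZ NSC and IV ventricle against cerebellar NSC each called 0 of 42 members with limma at an adjusted p of 0.05, and 0 of 42 even at an unadjusted p under 0.05. Over all genes, the share called was 0.352% higher and 0.412% lower in IV ventricle against SVZ NSC. It was 0.572% higher and 0.533% lower in cerebellar against SVZ NSC, and 0% in IV ventricle against cerebellar NSC. These shares are so low that 0 of 42 called members is close to them. An unadjusted p under 0.05 (limma) was reached by 1730, 2498 and 559 of 18194 genes in these comparisons. Median log2 differences of the members were 0.0415, 0.0553 and -0.0119 in these comparisons. Rpl38, which the translation of Hox mRNAs requires in the mouse, was measured at 11.81, 11.67 and 11.59 in IV ventricle NSC, at 11.80, 11.67 and 11.61 in cerebellar NSC and at 11.75, 11.71 and 11.65 in SVZ NSC, with full overlap.

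In p53 wt CSC lines against hindbrain NSC, for which the IV ventricle and cerebellar group means were averaged, 10 of 42 members fell and 0 rose, where 6.06% of all genes fell and 3.51% rose. The median log2 difference of the members was -0.104, against 0.00327 over all genes, and 38 of 42 differences were below 0. The lower members came from both subunits, 5 large and 5 small. Rpl12, which forms the base of the ribosomal stalk, fell to 4.77, 5.14 and 5.60 (lowest, median and highest of 8 lines), against 5.91, 6.38 and 5.72 in IV ventricle NSC and 5.91, 5.65 and 5.61 in cerebellar NSC. The lines lay below all 6 hindbrain values, and the difference was -0.73 ± 0.15 (SE; adjusted p = 0.00495, limma). Rpl37, whose product can bind Mdm2 in human cells, fell by 0.55 on the log2 scale (adjusted p = 0.00076). The other 8 fell by 0.23 to 0.33: Rpl22, Rpl41, Rplp2 of the stalk, Rps10, Rps15, Rps18, Rps26 and Rps27.

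Only 5 of these calls were made with each array centred on its median, and the same number with the digit mark as a random block. Rpl22, Rpl41, Rps10, Rps15 and Rps18 missed the threshold under both, at adjusted p-values of 0.0569 to 0.0846 with the block and with differences of -0.232 to -0.336. On probe sets without a shared-probe suffix, Rpl22, Rpl41, Rps10 and Rps18 were not called. Such probe sets were dim for Rpl41 (mean 3.5), Rps10 (3.65) and Rps18 (3.56), but not for Rpl22 (10.1). Single NSC cultures also mattered. The count was 6 without IV ventricle replicate 2, the NSC culture with the highest mean of bright members, where Rpl22, Rpl41, Rps10 and Rps18 were lost. Rps10 was lost without any of 4 NSC cultures (cerebellar replicates 1 and 2, IV ventricle replicates 1 and 2), Rps15 without cerebellar replicate 1 or 3 or IV ventricle replicate 3, and Rps18 without cerebellar replicate 1 or IV ventricle replicate 2. Rpl12, Rpl37, Rplp2, Rps26 and Rps27 were called with any 1 of the 9 NSC cultures left out, while no line was left out. With quantile normalization over the genes, Rps26 (-0.196, adjusted p = 0.0674, limma) and Rps18 (-0.217, adjusted p = 0.103, limma) were not called.

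In p53 het CSC against hindbrain NSC, 6 of 42 members rose and 1 fell, where 13.8% of all genes rose and 13% fell, so the share of members called was no higher than that of all genes. The 6 were Rpl37, Rpl8, Rpl6, Rpl22, Rps3 and Rplp0, the scaffold of the ribosomal stalk. Rpl37 was at 8.70 in tumour 27 and 8.79 in B, above its 6 hindbrain NSC values (8.09, 8.30 and 7.99 in IV ventricle, 8.42, 8.16 and 8.15 in cerebellar NSC). Its difference was 0.56 ± 0.13 (adjusted p = 0.00293, limma). Unlike the other calls, that of Rpl37 held with any 1 NSC culture or either p53 het tumour left out. No p53 wt line was left out. Rps29, a zinc-binding protein of the small subunit, fell to 11.71 in tumour 27 and 12.06 in B, against 12.25 to 12.41 over the hindbrain NSC, by 0.46 ± 0.09 (adjusted p = 0.00134), and was not called without tumour 27. The calls of Rpl6, Rpl8, Rplp0 and Rps3 ended without tumour B, that of Rps3 also without 27, that of Rplp0 also without cerebellar replicate 3 or IV ventricle replicate 1, and that of Rpl22 without B or without any of 6 NSC cultures, 1 of them from the SVZ. Rpl22 differed by 0.072 (adjusted p = 0.645) on the mean of its probe sets, and it missed the threshold with median centring (0.113) and with the digit mark as a random block (0.0635). Rplp0 missed it under the same centring (0.126) and block (0.0576). The median difference of the members was 0.076 with both tumours, -0.031 without B and 0.176 without 27.

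Set against the p53 wt CSC lines, p53 het CSC had higher levels of 16 members and lower levels of 2, where 14.5% of all genes rose and 11.8% fell. The median log2 difference of the members was 0.191 and that of all genes 0.0306. The lines are the same samples as in the comparison with NSC, so a gene low in the lines enters both. Rpl37 showed the widest gap, at 8.70 and 8.79 in tumours 27 and B, against 7.38, 7.65 and 7.80 (lowest, median, highest) in the lines. Its only probe set has a shared-probe suffix, so the alternatives of probe set choice left its values unchanged. Both tumours lay above all lines, and the difference of 1.11 ± 0.12 (2.17-fold; adjusted p = 3.24e-06) was the only called difference of a member above 1 in any comparison.

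Among the other large subunit members, Rpl22, which restrains expression of its own paralogue Rpl22l1 in the mouse, was at 11.52 and 11.75 in the tumours 27 and B, against 10.83 to 11.13 in the lines (difference 0.66 ± 0.12, adjusted p = 0.000328). Rpl8, close to the peptidyl transferase centre, rose by 0.51 ± 0.09 (adjusted p = 0.00038), and Rplp0 by 0.39 ± 0.08 (adjusted p = 0.00102). Rpl12 (0.80 ± 0.21), Rpl6 (0.43 ± 0.11), Rpl35 (0.38 ± 0.10) and Rpl38 (0.35 ± 0.11) also passed.

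In the small subunit the changes were of similar size. Rps27 rose by 0.51 ± 0.09 (adjusted p = 0.000455, limma) and Rps26, a Diamond-Blackfan gene, by 0.37 ± 0.09 (adjusted p = 0.00457). Both had nearly equal averages in the tumours. The technical arrays of 27 were apart for the dim Rps27, at 4.63, 4.95 and 4.24, where the highest line was at 4.23. Rps18 (0.48), Rps10 (0.44), Rps3 (0.33), Rps24 (0.32), Rps28 (0.30) and Rps15 (0.26) rose as well. Rpl7 (-0.29 ± 0.09) and Rps29 (-0.28 ± 0.09) fell, but both missed the threshold with the 75th percentile of each array set equal (adjusted p = 0.0629 and 0.0508, limma) and with quantile normalization over the genes (0.0787 and 0.0714). These scalings gave 16 higher and 0 lower members, and 17 and 0.

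Of the 18 calls, only those of Rpl22, Rpl37, Rpl8, Rplp0, Rps26 and Rps27 held without each p53 het tumour and each SVZ culture in turn. No p53 wt line was left out. Without tumour B 10 members were called, and Rpl12, Rpl35, Rpl6, Rps15, Rps18 and Rps24 were lost. Without tumour 27, Rps28 and Rps29 were lost, and Rpl38, Rpl7, Rps10 and Rps3 were lost without either tumour. Rps15 was also lost without any 1 of the SVZ cultures, which enter this comparison only through the estimate of spread. On probe sets without a shared-probe suffix, the differences of Rpl35 (0.106) and Rps18 (0.07) were small. Those of Rps10 (0.573) and Rps24 (0.673) were wider than before, and none of the 4 was called (adjusted p = 0.0949 to 0.8, limma). These probe sets were dim, averaging 2.07 for Rpl35, 3.56 for Rps18, 3.65 for Rps10 and 4.86 for Rps24. With median centring Rps15, Rps24 and Rps28 were not called.

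B and 27 also differed between themselves. In B, 28 of 33 bright members were higher than in 27, by a median of 0.192. Over all genes, 8247 of 18194 were higher in B, and the median was -0.0386. The 3 technical arrays of B lay above the 3 of 27 for 18 of the 33, below for 1, and overlapped for 14. The same share over all genes was not taken, so these counts are a description only. The arrays of B and 27 share no digit mark, so mark and tumour cannot be told apart. Rps7 was at 11.62 in B and 10.97 in 27, Rps14 at 11.87 and 11.25, and Rpl6 at 11.55 and 11.11. Among the dim genes, Rps25 was at 7.57, 7.42 and 7.86 on the arrays of B and at 5.58, 5.76 and 5.34 on those of 27. Rpl27a was at 5.44, 4.88 and 5.29 on the arrays of B and at 8.80, 5.10 and 8.72 on those of 27, against 4.78 to 6.45 in all other samples. The technical arrays of 27 thus disagree for Rpl27a, and its average of 7.54 stands for no single array. Rpl27a (SD 0.551), Rps25 (0.456) and Rpl12 (0.413) were the members that varied most over the 27 samples. With 1 culture per tumour there is no test between B and 27.

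**Figure D2:**
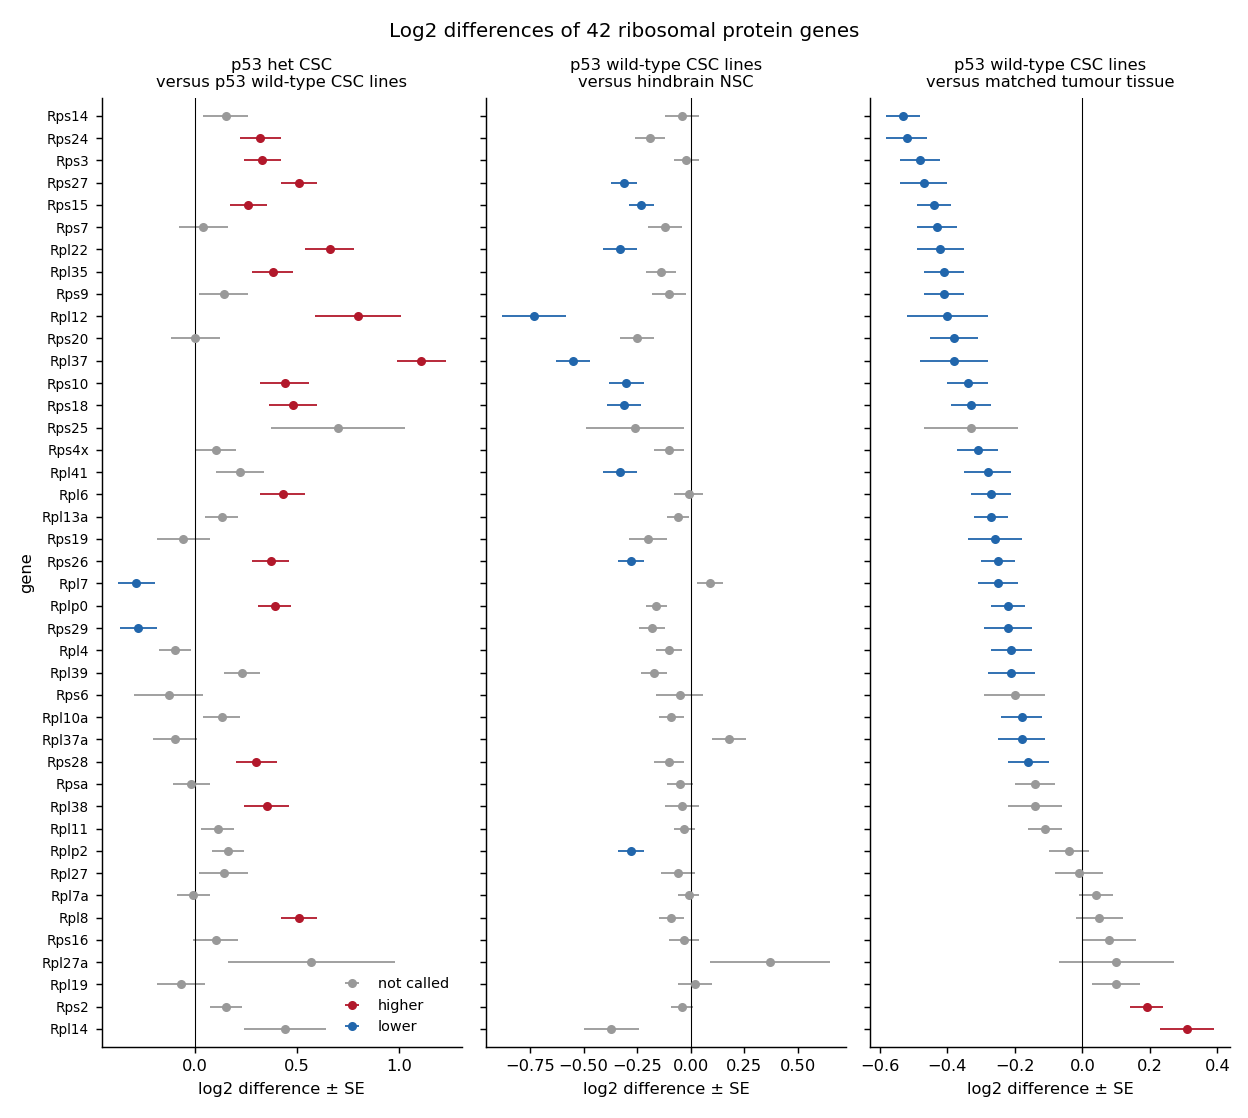
Log2 difference (x axis) with its standard error for each of the 42 members (y axis, ordered by the difference in the right panel) in p53 het CSC against p53 wt CSC lines, p53 wt CSC lines against hindbrain NSC, and p53 wt CSC lines against matched tumour tissue. Red and blue mark members called higher and lower at an adjusted p of 0.05, grey those not called, and the x axes differ in range; 28 members are lower and 2 higher in the right panel.

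The broadest change was between the p53 wt CSC lines and the tissues of the same 8 tumours. In the lines 28 of 42 members fell and 2 rose, where 23.1% of all genes fell and 26.6% rose. The median log2 difference of the members was -0.251, that of all genes 0.0634. Of the 558 other genes with a mean signal of at least 9, 143 fell and 218 rose, against 24 and 1 of the 33 bright members. The fall was small for each gene: Rps14, with the largest difference, was at 11.28, 11.41 and 11.49 (lowest, median, highest) in the lines, against 11.82, 11.94 and 12.03 in the tissues. The groups did not overlap, and the difference was -0.53 ± 0.05 (adjusted p = 2.06e-05), or 0.694 of the tissue signal.

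By subunit, 15 of 20 small subunit genes and 13 of 22 large subunit genes fell, with medians of -0.331 and -0.195; the difference between the subunits was not tested. In the small subunit, Rps24 stood at 11.38 to 11.62 in the lines and 11.92 to 12.15 in the tissues (-0.52 ± 0.06, adjusted p = 7.66e-05). Rps3, which lines the mRNA entry channel, stood at 10.99 to 11.30 in the lines and 11.54 to 11.76 in the tissues (-0.48 ± 0.06, adjusted p = 8.48e-05). Rps27 (-0.47), Rps15 (-0.44), Rps7 (-0.43) and Rps20 (-0.38) were lower in 8 of 8 tumours each. Rps4x, the X-linked S4 gene, fell by 0.31, but its difference on the mean of its probe sets was -0.079 and not called (adjusted p = 0.268). Rps19, the first gene linked to Diamond-Blackfan anaemia in humans, fell by 0.26 ± 0.08 (adjusted p = 0.0228). Without tumour 91, 92 or 77 its difference was -0.213, -0.248 or -0.229 and missed the threshold (adjusted p = 0.0522 to 0.0573, limma).

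In the large subunit, Rpl22 fell by 0.42 and Rpl35, near the exit tunnel, by 0.41, each lower in 8 of 8 tumours and without overlap. Rpl37 (-0.38), Rpl41 (-0.28), Rpl6 (-0.27), Rpl13a (-0.27) and Rplp0 (-0.22) followed. Rpl11, the Mdm2-binding protein, had 11.25 ± 0.06 in the lines and 11.36 ± 0.04 in the tissues and was not called (adjusted p = 0.112). Nor were Rplp2 (-0.04), Rpsa (-0.14), also known as a laminin receptor, Rpl38 (-0.14) and Rps6 (-0.20), the substrate of the S6 kinases. The calls of Rpl39 (-0.21), Rpl37a, Rpl10a and Rps28 each ended without at least 1 tumour: Rpl39 without 92 or 49, Rpl10a without 74 or 91, Rps28 without 74, 91, 9, 49 or 77, and Rpl37a without 74, 91, 92, 9, 77 or 83.

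With median centring Rpl41, Rplp0, Rps19, Rpl39, Rpl37a, Rpl10a, Rps28, Rpl4 and Rps29 missed the threshold. Exceptions to the fall were Rps2, at 11.89 to 12.12 in the lines and 11.62 to 11.98 in the tissues and higher in 8 of 8 tumours (0.19 ± 0.05, adjusted p = 0.0124), and Rpl14, higher in 7 of 8 (0.31 ± 0.08, adjusted p = 0.0108). Rps2 missed the threshold with the 75th percentile of each array set equal (0.145, adjusted p = 0.0681, limma). It also missed it in the 4 tumours whose line and tissue share a digit mark (0.175) and in the other 4 (0.213). The dim Rpl14 missed it with all 27 samples in 1 fit (0.307, adjusted p = 0.0507, limma) and in the 4 tumours that share a mark (0.209). Rps18 fell by 0.33 and Rps9 by 0.41 on the chosen probe sets. On probe sets without a shared-probe suffix, their differences were 0.093 (adjusted p = 0.453, limma) and 0.096 (adjusted p = 0.538). These probe sets were dim, averaging 3.56 and 4.82 where array medians lay at 3.166 to 3.324, so they cannot settle the direction. Other bright Rps18 probe sets, averaging 11.6 and 10.9, correlated with the chosen one at 0.978 and 0.901. A further Rps9 probe set, averaging 9.03, correlated with the chosen one at 0.1. Rpl35 and Rps24 also missed the threshold on such probe sets (adjusted p = 0.282 and 0.246, limma), which averaged only 2.07 and 4.86. Other bright probe sets of Rpl35 correlated with the chosen one at 0.948 to 0.964, and those of Rps24 at 0.866 to 0.967. In the 4 tumours whose line and tissue share a digit mark 21 members were lower and 0 higher, and in the other 4, 12 lower and 1 higher.

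Tissue and lines differ in cell content. Over all genes, 26.6% rose and 23.1% fell in lines against tissue, and 14.5% rose and 11.8% fell in p53 het CSC against lines. Of neuron markers, 16 of 18 were lower in the lines and 0 higher, with a log2 summed level of 10.97 to 11.45 in lines and 13.22 to 13.71 in tissues. Microglia and macrophage markers were lower for 11 of 12 and higher for 1 (5.76 to 6.15 in lines, 9.79 to 11.13 in tissues), and endothelial and pericyte markers lower for 11 of 11 (median 6.02 in lines, 8.29 in tissues). Astrocyte markers were lower for 4 of 7 and higher for 1. In the other direction, neural stem cell markers were higher in the lines for 9 of 12 and lower for 2 (13.41 to 13.90 in lines, 10.91 to 11.75 in tissues), and proliferation genes higher for 10 of 21 and lower for 1. The part of these in the lower ribosomal protein signal was not tested. In these bulk samples, fewer cells of a type and less RNA per cell cannot be told apart. Between p53 het CSC and p53 wt lines, neural stem cell markers were lower for 9 of 12 (12.23 to 12.62 in p53 het, 13.41 to 13.90 in lines), proliferation genes for 7 of 21 (median 13.23 in p53 het, 13.69 in lines), and oligodendrocyte markers were higher for 3 of 10 and lower for 2. Sox10, a factor of the oligodendrocyte lineage, averaged 10.06 in p53 het CSC and 4.23 in the lines. Pdgfra, a receptor of oligodendrocyte precursors, averaged 10.19 in p53 het CSC and 6.41 in the lines. Sox10 and Pdgfra were both higher, and no lower gene of the list is given here, so they do not stand for the list. The oligodendrocyte list moved both ways, with a log2 summed level of 12.22 to 12.77 in p53 het CSC and 12.15 to 12.72 in the lines. No lineage is named from these genes. The part of these marker lists in the result was not tested either.

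Other genes of the translation machinery were counted against the same shares over all genes, 26.6% higher and 23.1% lower in lines against tissue and 14.5% higher and 11.8% lower in p53 het CSC against lines. Of the 17 measured elongation factor and further TOP mRNA genes, 10 fell and 1 rose in the lines against tissue (median -0.335), among them Fau, which encodes the small subunit protein eS30 (-0.61 ± 0.06, adjusted p = 1.9e-05), and Eif3k (-0.86 ± 0.05, adjusted p = 5.06e-07). In p53 het CSC against the lines 8 of these 17 rose and 0 fell. Eif4b (1.00 ± 0.13) and Eif3e (0.85 ± 0.14) were among them. The part of chromosome-wide shifts, described below, in the differences of these and the following lists was not tested. The separate list of 21 translation initiation genes was mixed, with 5 higher and 5 lower in lines against tissue, and 4 higher and 5 lower in p53 het CSC against lines. Of 14 RNA polymerase I genes, 2 rose and 6 fell in lines against tissue, and 3 rose and 1 fell in p53 het CSC against lines. Of 42 measured ribosome biogenesis genes, by contrast, 14 rose and 12 fell in lines against tissue; Bysl, needed for 40S maturation, rose by 1.30 ± 0.10 (adjusted p = 3.65e-06). In p53 het CSC against lines 17 of the 42 rose and 1 fell, with Nip7 (1.33 ± 0.14) and Nop10 (1.00 ± 0.15) leading. Mitochondrial ribosomal protein genes rose for 35 and fell for 8 of 76 in lines against tissue, and rose for 21 and fell for 3 in p53 het CSC against lines. Of 15 regulators of ribosomal protein genes and of the Myc network, 2 rose and 7 fell in lines against tissue, and 3 rose and 2 fell in p53 het CSC against lines. Myc, an activator of ribosome production, rose by 1.67 ± 0.14 in the lines against tissue while Mycn fell by 6.88 ± 0.17, and Myc rose by 0.98 ± 0.17 in p53 het CSC against the lines. In the TOR list, Mtor rose by 0.60 ± 0.07 in lines against tissue and fell by 0.87 ± 0.12 in p53 het CSC against lines; the list as a whole had 7 higher and 4 lower, and 1 higher and 3 lower, of 16.

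Of the 6 measured like-named paralogues, 1 rose and 1 fell in p53 het CSC against lines, where 14.5% of all genes rose and 11.8% fell. In lines against tissue 1 rose and 1 fell as well, where 26.6% of all genes rose and 23.1% fell. With 6 genes these counts are near those shares. Rpl22l1 was at 8.50 in tumour 27, below the lines, and at 10.13 in tumour B, within their range of 9.67 to 10.39. In p53 het CSC, Rpl22l1 averaged 9.31 ± 1.15, against 10.13 ± 0.27 in the lines and 10.36 ± 0.14 in hindbrain NSC (adjusted p = 0.0337 and 0.00936, limma). Rps27l, a p53 target, was higher in lines than in tissue by 0.61 ± 0.09 (adjusted p = 0.000232), with Rps27 lower. Of 13 genes of the p53 and Mdm2 axis, 8 were lower in p53 het CSC than in the lines and 0 higher. Over all genes, 11.8% were lower and 14.5% higher.

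Whether the members move together was asked within the groups, by subtracting each group's mean and correlating the members over the 27 samples. The mean pairwise Pearson r was 0.194 over the 42 members and 0.213 over the 33 bright ones, against 0.00987 over all genes and 0.0192 over the 558 other genes with a mean of at least 9. Of 861 pairs, 642 were positive and 121 exceeded 0.5. The samples share arrays and normalization, and these correlations are given as a description. Bright genes of the large subunit had a mean r of 0.211 and those of the small subunit 0.23. The members' movement was of low amplitude, with a median SD within groups of 0.0882 for bright members, against 0.154 for the other bright genes. Within single sets, the mean r over the 42 was 0.159 in the 8 lines, 0.126 in the 8 tissues, 0.197 in the 9 NSC, and 0.155 in the 25 samples without the p53 het tumours. With only 2 samples in that group, the deviations of 27 and B mirror each other by construction. Centring each array on its median raised it to 0.411, and that of all genes to 0.0574.

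Rps7 (mean r with the other members 0.379), Rpl6 (0.370), Rpl35 (0.350) and Rps4x (0.347) were the most typical members. Rpl6 and Rps7 correlated at 0.866, and Rps7 and Rps14 at 0.837. The least typical were Rpl27a (-0.252), Rps16 (-0.0864), Rps28 (-0.0622) and Rpl37a (-0.035). Rps16 lay between 0.96 and 1.57 in all samples, which is the bottom of the scale. Among samples, line 68 had 28 of 33 bright members above its group mean, IV ventricle replicate 2 and tissue 77 had 25 each, and line 91 and IV ventricle replicate 1 had 5 each.

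**Figure D3:**
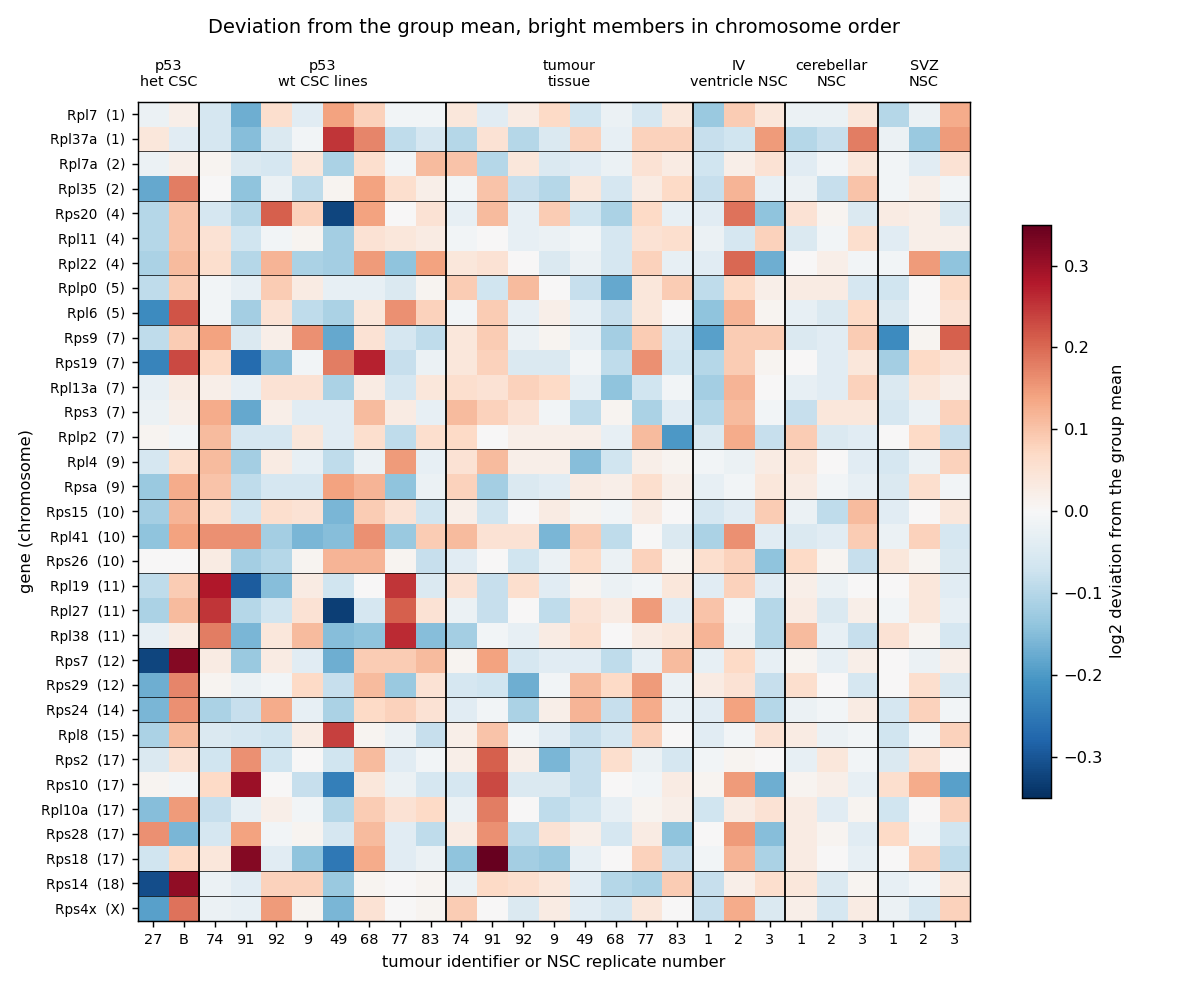
Deviation of the 33 bright members (rows, ordered by chromosome, given in brackets) from the mean of their group in each of the 27 samples (columns, by group), on the log2 scale from blue (below) to red (above). Columns of one colour are samples in which most members moved together, as in line 68 and p53 het tumour B; the chromosome 11 genes in lines 74 and 77 and the chromosome 17 genes in line and tissue 91 form blocks that depart from their column.

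Position on the genome went with a further pattern, which was singled out after the values were seen. The 33 bright members lie on 14 chromosomes. Their 34 pairs on the same chromosome had a mean r of 0.385 over the 27 samples, and their 494 pairs on different chromosomes 0.202. In the 8 lines the values were 0.448 and 0.154. For 9043 other genes at or above the median level, the same contrast in the lines was 0.156 and 0.00497, while in the 9 NSC it was 0.0326 and 0.0299. The members gave 0.278 and 0.207 in the 9 NSC and 0.309 and 0.12 in the 8 tissues, so their same-chromosome pairs were also the more alike there. In the lines, same-chromosome genes were thus more alike than other pairs both among the ribosomal protein genes and outside them.

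Chromosome 11 carries Rpl19, Rpl27 and Rpl38, and all 3 were highest in lines 74 and 77. Rpl19 was at 12.01 in line 74 and 11.98 in line 77, against 11.45 to 11.77 in the other lines. Rpl27 was at 11.01 and 10.97 in these lines, against 10.43 to 10.81, and Rpl38 at 11.83 and 11.91, against 11.48 to 11.76. The 757 other chromosome 11 genes had a median deviation from the mean of the lines of 0.352 in line 74 and 0.313 in line 77, against -0.207 in line 49, where the 3 members lay 0.182 below the mean of the lines. In the tissues the chromosome 11 medians stayed between -0.037 and 0.049, and the mean of the 3 members between -0.057 and 0.056.

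Chromosome 17 carries Rps2, Rps10, Rpl10a, Rps28 and Rps18. In line 91, 4 of these 5 were above the mean of the lines, while only 1 of the other 28 bright members was. Rps10 was at 11.84 in line 91, against 11.30 to 11.61 in the other lines, and Rps18 at 11.70, against 11.12 to 11.51. The tissue of the same tumour showed the same genes high, with Rps10 at 12.10, against 11.80 to 11.90 in the other tissues, and Rps18 at 12.14, against 11.57 to 11.78. All 5 were above the tissue mean there. The median of 436 other chromosome 17 genes was 0.454 above the mean in line 91 and 0.369 in tissue 91. Rps10 and Rps18 correlated at 0.867 over the 27 samples, the highest r of all member pairs.

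Line 49 differed on chromosomes 1 and 15. Rpl8, on chromosome 15, was at 11.56 in line 49, against 11.24 to 11.35 in the others, with a median of 0.393 for 352 other chromosome 15 genes. Rpl7 and Rpl37a, on chromosome 1, averaged 0.197 above the mean of the lines in line 49, where 520 other chromosome 1 genes had a median of 0.386 and only 5 of the 31 bright members elsewhere were above the mean.

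**Figure D4:**
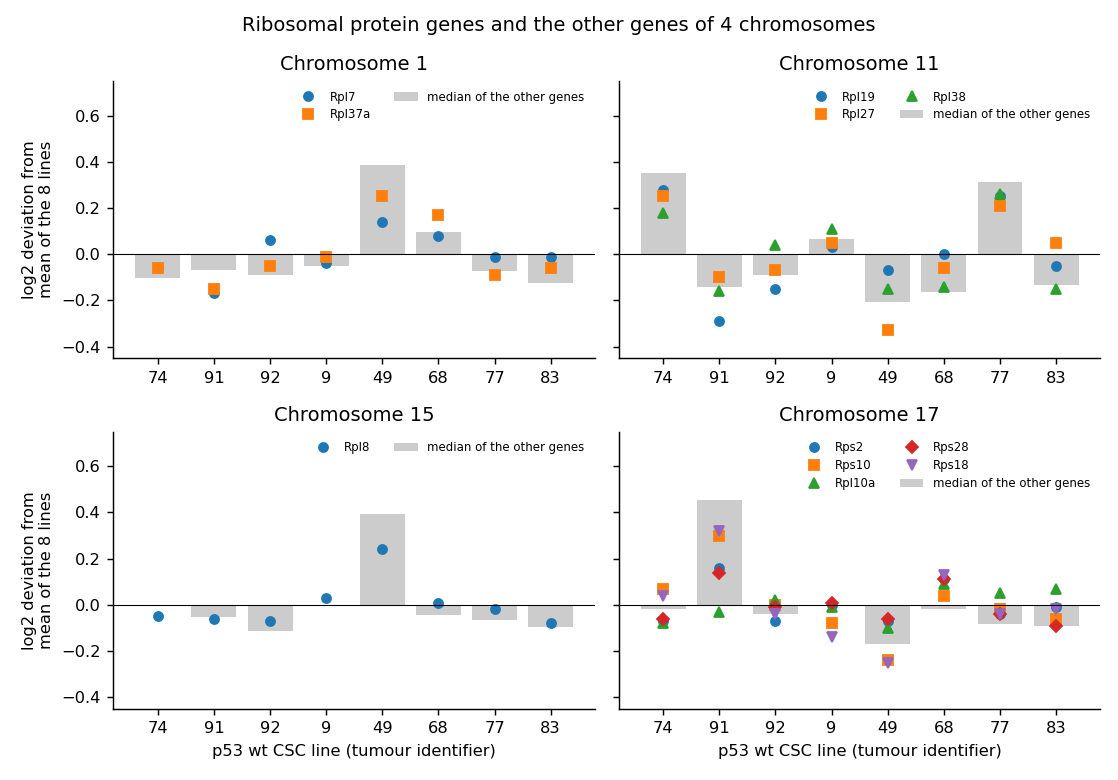
Log2 deviation from the mean of the 8 p53 wt CSC lines (y axis) by line (x axis) for the bright ribosomal protein genes of chromosomes 1, 11, 15 and 17 (points) and the median of the other genes of the same chromosome at or above the median level (grey bars). The members lie high where the bar is high: chromosome 1 and 15 in line 49, chromosome 11 in lines 74 and 77, and chromosome 17 in line 91, apart from Rpl10a.

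The p53 het tumours also differed by chromosome. In B minus 27, the median of the other genes was 0.72 on chromosome 18, where Rps14 differed by 0.63, 0.47 on chromosome 12, where Rps7 and Rps29 differed by a median of 0.50, 0.49 on the X chromosome, where Rps4x differed by 0.39, and 0.30 on chromosome 5, where Rpl6 and Rplp0 differed by a median of 0.31. Rps7, Rps14, Rps4x and Rpl6 are thus genes of chromosomes that shifted, and are among those most correlated with the other members. On chromosome 14 the median of the other genes was -0.07 and Rps24 differed by 0.33, and on chromosome 4 it was -0.04, with Rpl11, Rpl22 and Rps20 different by 0.19 to 0.23. In p53 het CSC against lines, 352 other chromosome 15 genes had a median difference of 0.549, beside 0.51 for Rpl8 and 1.11 for Rpl37, which both lie there, and chromosome 12 genes one of -0.482, beside -0.28 for Rps29 and 0.04 for Rps7, which was not called. Chromosomes 12 and 15 hold 3 of the 18 called members, and the other 15 lie elsewhere. Some of these lie on chromosomes that moved the same way. Chromosome 5, with Rpl6 and Rplp0, had medians of 0.266 for other genes and 0.409 for bright members. Chromosome 17, with Rps10, Rps18 and Rps28, had 0.168 and 0.297, and chromosome 1, with Rpl7, had -0.254 and -0.195. Rpl22 lies on chromosome 4, where the median of the other genes was -0.097. On chromosome 11 the other genes had a median of -0.187 and the members one of 0.139, and on chromosome 18 the values were -0.344 and 0.153 for Rps14, so members did not always go with their chromosome.

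With each sample's chromosome medians subtracted, an alternative added after the data were seen, the mean r of the bright members was 0.284 over the 27 samples, against 0.213 as deposited. In the 8 lines, pairs on different chromosomes reached 0.338, against 0.154 as deposited, and pairs on the same chromosome 0.463, against 0.448. Subtracting these medians also recentres each array. Centring each sample's deviations on their median alone gave 0.279 for the bright members over the 27 samples, and 0.19 and 0.471 for pairs on different chromosomes and on the same chromosome in the lines, while centring the arrays' levels on their medians gave 0.456 over the 27 samples.

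The genes outside the membership whose within-group pattern was most like the mean of the members, over the 27 samples, were Tfam (r = 0.859), Rpl22l1 (0.833), Rps3a1 (0.798), Clca2 (0.792) and Rfc4 (0.785). These r include the p53 het tumours, whose deviations mirror each other, and were not taken without them. Rpl22l1 was at 8.50 in tumour 27 and 10.13 in B. Rps3a1 is the ribosomal protein gene eS1, which the naming rule left out. Tfam encodes the mitochondrial transcription factor, and Rfc4 a subunit of the clamp loader of DNA replication. Clca2 had a mean level of 1.23, near the bottom of the scale.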

How the data were processed

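Biotin-labelled cRNA made from total RNA was hybridised to 31 Affymetrix mouse arrays, per the labels' protocols. The authors deposited log2 values per probe set, made with RMA per the submitters' processing notes; its version is not stated there. Values were used as deposited. Of 45101 probe sets, 34958 carried 1 symbol, and each of 18194 genes was represented by its brightest one on average. Technical replicates of each p53 het tumour were averaged, leaving 27 samples. Array number limits precision.

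Comparisons used limma 3.58.1 in R 4.3.3 (lmFit, eBayes, two-sided), with Benjamini-Hochberg adjustment over all genes and a threshold of 0.05: 1 fit of the 9 NSC, 1 of the 19 cultures, and 1 of lines and tissues with the tumour as a block, since both carry its identifier. The spread of the pair of p53 het tumours is thus taken as that of the other cultures. The fits were tested on simulated data. NSC replicate numbers paired IV ventricle with SVZ (r between same-numbered deviations 0.25 to 0.32) and cerebellar with SVZ cultures (0.17 to 0.34), whose labels also share a letter; IV ventricle and cerebellar cultures did not pair (-0.14 to 0.38). Chromosome medians used the genes at or above the median level.

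Named genes were, per comparison, up to 6 called members of each direction, those with extreme signal, correlation or spread, members of known role, and per gene list up to 3 called genes of each direction; the text gives the leading ones. Python 3.11.15 with pandas 2.3.3 and matplotlib 3.10.9 made correlations and figures. Members and lists were chosen with earlier results of these data known. Alternatives covered array scaling, probe set choice, dim genes, priors, blocks, digit marks and leaving out single NSC cultures or tumours. In the fits of cultures, no p53 wt line was left out.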

Additional observations from a re-analysis of the deposited data

Results flagged for a closer look

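Among 88 sets of values in groups of 4 to 10 samples, 7 had a highest or lowest sample whose gap to the next exceeded Dixon's critical value; chance alone flags about 1 in 20 such groups. In tissue 91, 3 genes of chromosome 17 were high: Rpl10a at 11.88 (other tissues 11.60 to 11.72), Rps10 at 12.10 (11.80 to 11.90) and Rps18 at 12.14 (11.57 to 11.78). In the same tissue Rps15 was low at 11.34 (others 11.40 to 11.44). Rplp2 was low in tissue 83 at 11.59 (others 11.77 to 11.91). In the lines, Rpl8 was high in line 49 at 11.56 (others 11.24 to 11.35), and Rps16 was high in line 83 at 1.57 (others 1.11 to 1.32), at the bottom of the scale.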

How the results depend on the processing

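The counts of called members kept within 1.5 times the reported count in 138 of 144 alternatives. For p53 wt CSC lines against hindbrain NSC, 5 members were called after median centring of each array, 5 with the digit mark as a random block, and 6 to 10 when 1 NSC culture was left out (6 without IV ventricle replicate 2). For p53 het CSC against p53 wt lines, leaving out 1 sample gave 10 to 17 (10 without tumour B). For lines against tissue, the 4 tumours whose line and tissue differ in digit mark gave 13, with fewer samples, and no replicate block gave 31. Median centring raised the mean pairwise correlation of the members to 0.411; the cause was not tested. Of 1163 repeats for single members, 1016 kept their direction and their side of the threshold, 145 missed the threshold and 2 reversed, Rps18 (0.093) and Rps9 (0.096) in lines against tissue on probe sets without a shared-probe suffix; the cause was not tested. With the replicate block, the NSC comparisons again called 0 members, and over all genes 196 for IV ventricle against SVZ, 280 for cerebellar against SVZ and 0 for IV ventricle against cerebellar NSC. The block changed no call of a member. Signal near the top of the scale limits the bright members, and signal near background the dim ones.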
